A study of Labrus bergylta with 24 samples.

Results

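Dietary soyasaponin was followed in the hindgut transcriptome of 24 ballan wrasse (Labrus bergylta). This species has no stomach and is kept in salmon farms as a cleaner fish against sea lice. The treatment labels sorted the fish: 12 of the 24 had received soyasaponin and 12 had not, and all 24 fish of the series were used. Of the 12 given soyasaponin, 6 ate the reference feed with 0.7% soyasaponin (soyasaponin fish) and 6 ate it with 0.7% soyasaponin and 0.4% of the commercial prebiotic Aquate SG (combined fish). Of the 12 others, 6 ate the reference feed alone (control fish) and 6 ate it with 0.4% prebiotic (prebiotic fish). All fish were kept on the reference feed for 4 weeks and on the trial feeds for 5 weeks. Strain, sex and age are not stated in the labels. Each feed went to 2 tanks. Which fish came from which tank is not stated either, and effects of feed and tank cannot be told apart. The soyasaponin main effect is the mean of 2 differences, soyasaponin minus control and combined minus prebiotic, so that each prebiotic level weighs the same.

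Soyasaponins are soybean triterpene glycosides with detergent-like properties that stay in soy ingredients unless they are extracted with alcohol. In salmonid fish they are known as a component of soy feeds associated with inflammation of the distal intestine. The hindgut of fish takes up intact proteins by endocytosis and is rich in immune cells. The transcripts in the deposited table carry identifiers without gene names, and 0 of 20751 matched the gene table used here. Hindgut and cell type markers could therefore not be checked, no sequence could be printed, and at most 2 identifiers that rose and 2 that fell are given. In whole tissue, fewer cells of a type and less RNA per cell cannot be told apart.

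Whole reads recovered from the deposited normalized counts numbered 8.55 to 11.2 M per library in the 12 fish given soyasaponin and 8.42 to 12.5 M in the 12 others. Mean depth was 9.64 ± 0.867 M and 9.59 ± 1.15 M (SD, n = 12 each), and this difference had a permutation p of 0.910. Size factors, transcripts detected and the score on the first principal component gave permutation p-values of 0.649, 0.942 and 0.524. The 100 most abundant transcripts held 27.1 ± 1.36% of normalized counts with soyasaponin and 28.7 ± 2.72% without (SD, n = 12 each; permutation p = 0.0864). None of these 5 measures passed adjustment over the 5, where the lowest adjusted p was 0.432. The tests are two-sided with 100000 resamples over all 24 fish. Exact permutation within prebiotic levels, added after seeing the data, gave p = 0.0505 for the top-100 share (adjusted p = 0.252 over the 5). Within levels this share ran from 28.04% to 32.8% in prebiotic and 26.3% to 28.6% in combined fish, a difference of -3.22 percentage points (exact permutation p = 0.00433, adjusted p = 0.0433 over 10 tests within levels). Medians were 30.5% in prebiotic and 27.3% in combined fish. Control and soyasaponin fish had medians of 26.5% and 26.7% (exact permutation p = 0.946), so prebiotic fish had the highest median of the diets. Whether the difference with soyasaponin itself differed between levels was not tested.

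Many hindgut transcripts differed between fish with and without soyasaponin, and most of these differences were smaller than 1.5-fold. Of 17056 transcripts tested, 1017 (5.96%) had a Benjamini-Hochberg adjusted p under 0.05 in limma, 693 (4.06%) higher and 324 (1.9%) lower with soyasaponin. Among the 1017, 657 (64.6%) changed by less than 1.5-fold, 274 (26.9%) by 1.5- to 2-fold, 78 (7.67%) by 2- to 4-fold and 8 (0.787%) by 4-fold or more. The transcripts that rose had a median log2 fold change of 0.49 with quartiles of 0.35 and 0.67, and those that fell had a median of -0.53 with quartiles of -0.73 and -0.41. Over all transcripts tested the median was -0.02, and the central 90% lay between -0.61 and 0.52. Transcripts that rose were more abundant, with a median of 399 normalized counts over all fish against 178 for those that fell and 138 for all tested. These counts are per transcript and not per length, since transcript lengths were not known.

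The unadjusted 95% interval of the main effect lay wholly within a 2-fold change either way for 14449 transcripts (84.7%) and within a 1.5-fold change for 10363 (60.8%). It lay wholly beyond a 2-fold change for 11 transcripts, 5 higher and 6 lower. Most large estimates did not pass the test, although they passed more often than transcripts at large. Of 440 transcripts with an estimate of at least 2-fold, 86 were called, against 1017 (5.96%) of all 17056. The other 354 were not called, 116 of them with higher and 238 with lower estimates. Their median SD between fish of the same diet was 2.11 log2 units, against 0.79 in the 86 that were called. Of the 354, 112 (31.6%) correlated with the first principal component beyond 0.5 in size, against 1 of the 86 and 3664 of the 17056 tested (21.5%). That component held 31.5% of the variance between fish, and its part in these estimates was not tested.

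**Figure D1:**
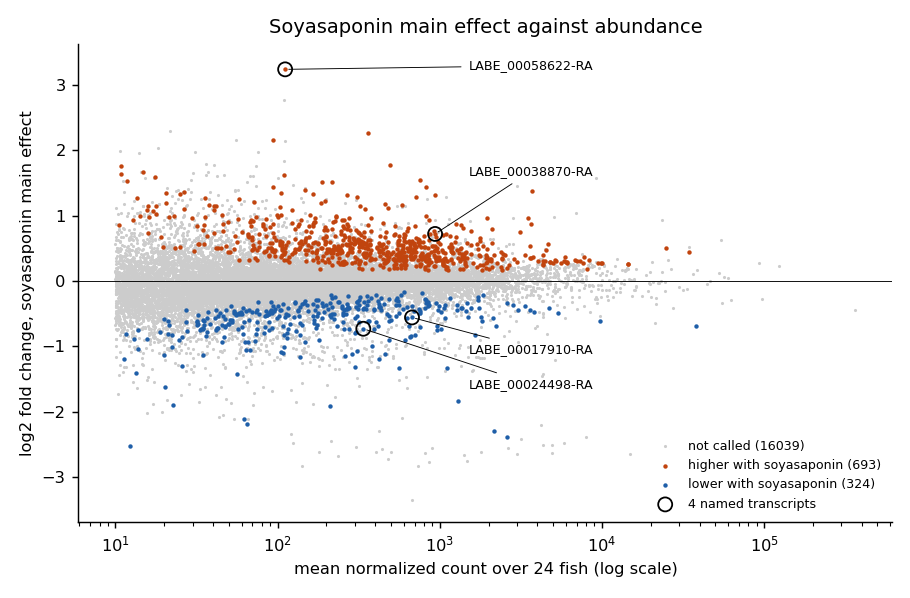
Each point is a transcript, with its mean normalized count over 24 fish on a log axis and its log2 fold change for soyasaponin, averaged over both prebiotic levels, on the vertical axis. The 693 higher and 324 lower transcripts with an adjusted p under 0.05 lie close to 0 at high abundance and farther from it at low abundance, and many larger estimates were not called.

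The count of 1017 came from a fit that treated fish as independent. It became 1538 without soyasaponin replicate 2 and 646 without combined replicate 2. With the values averaged over the 3 lower and the 3 higher fish numbers in the sample titles of each diet, which may or may not follow tanks, 8 averages remained. From these, limma called 2 transcripts, both lower, with 3104 at an unadjusted p under 0.05 where all fish gave 3647 (21.4%).

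Of the transcripts with the most extreme moderated t, most had moderate changes. The named transcripts are the 2 with the highest and the 2 with the lowest moderated t among the 1017. Of these 4, 3 changed by less than 1.7-fold, and their estimates ranked 965 to 1709 by size among all transcripts tested. The estimate of the remaining transcript, LABE_00058622-RA, ranked 3.

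LABE_00038870-RA rose. It stood at 619 to 1040 normalized counts in control fish (median 686) and 609 to 782 in prebiotic fish (median 649). It reached 843 to 1395 in soyasaponin fish (median 992) and 1089 to 1630 in combined fish (median 1182). Control replicate 5, at 1040, was the only fish without soyasaponin inside the range of those given it, and the 6 combined fish lay above all 12 without soyasaponin. The log2 fold change was 0.72 (SE 0.10, adjusted p = 0.00131), a 1.65-fold rise, with 0.54 (SE 0.14) without prebiotic and 0.90 (SE 0.14) with it.

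LABE_00058622-RA rose the most of the 4 and separated the groups completely. Its range was 8.09 to 40.1 normalized counts in control (median 20.3), 2.35 to 43.6 in prebiotic (median 14.3), 91.3 to 614 in soyasaponin (median 177) and 45.5 to 342 in combined fish (median 137). Every fish given soyasaponin lay above every fish without it, although combined replicate 6, at 45.5, exceeded prebiotic replicate 5, at 43.6, by little. The log2 fold change was 3.24 (SE 0.45, adjusted p = 0.00131), a 9.44-fold rise. It was 3.25 (SE 0.63) without and 3.23 (SE 0.63) with prebiotic, so the estimates of the levels differed by -0.02 (SE 0.89).

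LABE_00024498-RA fell. Control fish held 314 to 462 normalized counts (median 426), prebiotic fish 330 to 527 (median 434), soyasaponin fish 219 to 412 (median 264) and combined fish 181 to 260 (median 233). Soyasaponin replicate 4, at 412, lay inside the range of the fish without soyasaponin, and the other 11 given it lay below that range. The log2 fold change was -0.73 (SE 0.10, adjusted p = 0.00131), with -0.56 (SE 0.14) without and -0.91 (SE 0.14) with prebiotic.

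LABE_00017910-RA fell from 606 to 938 normalized counts in control (median 786) and 743 to 912 in prebiotic fish (median 846) to 496 to 692 in soyasaponin (median 563) and 425 to 682 in combined fish (median 493.3). Of the fish given soyasaponin, 3 lay above the lowest control fish, and none reached the prebiotic range. The log2 fold change was -0.56 (SE 0.08, adjusted p = 0.00218), with -0.39 (SE 0.12) without and -0.73 (SE 0.12) with prebiotic. In each of the 4 transcripts 12 of 12 fish given soyasaponin lay past the median of the 12 others. Interaction tests for the 4 gave adjusted p-values of 0.396 to 0.996. With the 8 averages described above, adjusted p rose to 0.0548 to 0.0669 for the 4.

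**Figure D2:**
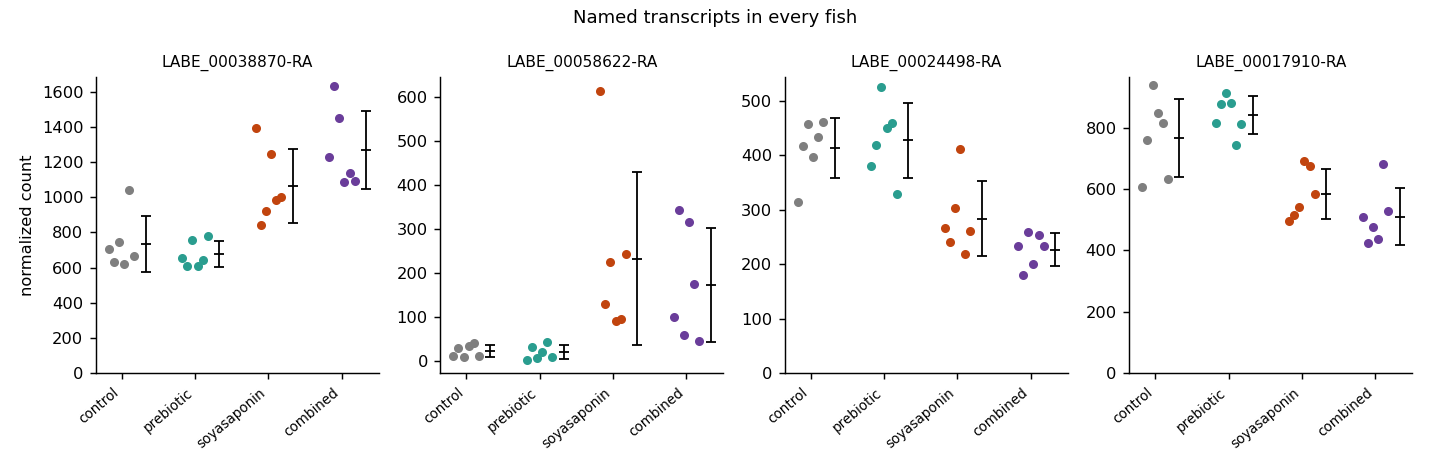
Normalized counts of the 4 named transcripts in each of 24 fish, by diet, with points for fish and the mean ± SD (n = 6) beside them. LABE_00058622-RA separates all fish given soyasaponin from all others, while the other 3 overlap by 1 to 4 fish given soyasaponin.

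The main effect was called more often in abundant transcripts. Cut into 3 equal classes by mean normalized count over all 24 fish, the bottom class (below 67.6) held 150 called transcripts of 5686 (2.64%), the middle class 315 of 5685 (5.54%) and the top class (above 272) 552 of 5685 (9.71%). By decile the share rose from 1.52% in the lowest to 11.7% in the ninth and 10.6% in the highest. The size of the called changes ran the other way, with a median of 0.74 log2 units in the bottom class, 0.52 in the middle and 0.43 in the top. Precision moved with it: the median standard error fell from 0.27 in the lowest decile to 0.09 in the highest, and at those values a transcript needed a change of 1.86-fold or 1.24-fold to pass. Transcripts that changed by at least 2-fold were spread more evenly, with 37, 25 and 24 in the 3 classes.

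The direction of the called changes also followed abundance with the deposited size factors. In the top class 426 of 552 (77.2%) were higher, in the middle class 203 of 315 (64.4%) and in the bottom class 64 of 150 (42.7%). Called changes of at least 2-fold did not show this gradient, with 14 of 24 higher in the top, 18 of 25 in the middle and 23 of 37 in the bottom class. Transcripts that fell made up 1.70% to 2.40% of those tested in each decile from the third up, while those that rose went from 0.996% to 9.50% between the first and the ninth decile. The lowest decile departed from the gradient, with 17 of its 26 called transcripts higher. Over all omissions of a single fish the share higher stayed between 69.4% and 82.6% in the top class and between 36.7% and 51.1% in the bottom class. Without prebiotic replicates 4 and 5 together it was 64.1% in the top and 39.2% in the bottom class. With the first principal component as a covariate it was 68.0% and 34.7%.

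This gradient in direction varied in size with the scaling, and cyclic loess normalization, described below, removed it. All transcripts tested, called or not, shifted with abundance: the median log2 fold change of the main effect went from -0.11 in the lowest decile to 0.03 in the highest. Without prebiotic it went from -0.14 to 0.11, and with prebiotic it was -0.04 and -0.03. Set out per fish, the abundance tilt was the median deviation of the top decile from the mean of all fish minus that of the bottom decile. It was -0.31 to -0.20 log2 units in the 6 control fish, -0.004 to 0.13 in prebiotic, -0.13 to 0.18 in soyasaponin and -0.13 to 0.25 in combined fish. The 6 control fish lay below the 18 others, and the other 3 diets overlapped. The tilt therefore set control fish apart from prebiotic fish as well as from fish given soyasaponin. In the sample titles, all control fish also carry higher numbers than any fish of the other diets. What these numbers follow is not stated, and their part in the tilt was not tested.

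Cyclic loess normalization, which removes such tilts by construction and was added after seeing the data, called 949 transcripts, 621 higher and 328 lower. Then 313 of 499 in the top class (62.7%) and 97 of 150 in the bottom class (64.7%) were higher, so the top class no longer had the larger share of higher transcripts, while it still held more calls. Quantile normalization gave 438 higher of 538 (81.4%) in the top class and 94 of 142 (66.2%) in the bottom class. Total-count scaling, also added, gave 905 higher and 207 lower in all, with 87.9% higher in the top class and 59.4% in the bottom class. With it the median over all transcripts moved by more than 0.1 in the comparison of combined with prebiotic fish, from -0.04 to 0.10. The majority of higher transcripts in the top class held under each of these scalings, whereas the majority of lower transcripts in the bottom class did not.

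**Figure D3:**
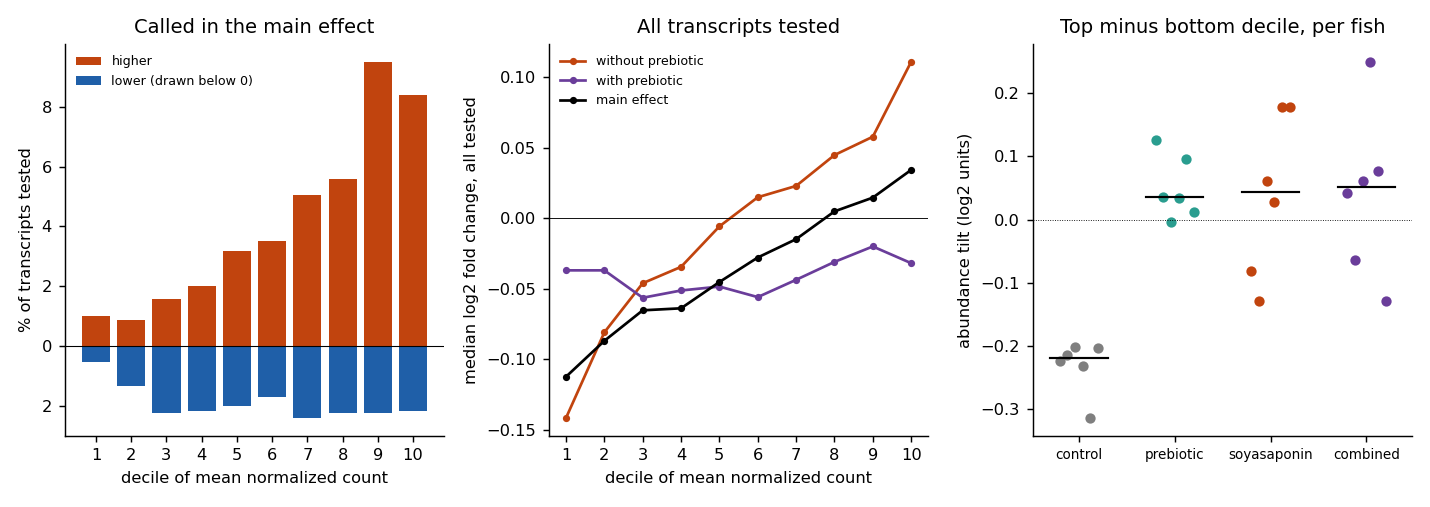
Left, share of the transcripts tested that were called higher or lower in the main effect, by decile of mean normalized count. Middle, median log2 fold change of all transcripts tested in each decile, for each prebiotic level and the main effect. Right, abundance tilt of each fish with the median of its diet as a line, where the 6 control fish lie below all others.

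Nearly all called transcripts pointed the same way in both prebiotic levels, a result that selection on the mean favours. Of the 693 that rose, 689 had positive estimates in both levels, and of the 324 that fell, 314 had negative ones, against 9419 of all 17056 (55.2%) with matching signs. The risen transcripts had larger estimates with prebiotic (median 0.62) than without (median 0.36). In 514 of 693 the estimate was larger in size with it, against 9333 of all 17056 (54.7%). The fallen transcripts were not larger with prebiotic, at a median of -0.50 with and -0.59 without it. Whether interactions were called for single transcripts depended on the fit. Main-fit limma and edgeR called 0, limma with 2174 (12.7%) and edgeR with 2296 at an unadjusted p under 0.05. DESeq2 called 117 and limma under total-count scaling 72. Under that scaling without prebiotic replicates 4 and 5, limma called 0. Among the 1017, 212 (20.8%) had an unadjusted interaction p under 0.05, and the lowest adjusted p was 0.180. The medians of the risen transcripts in each level were not recomputed without prebiotic replicates 4 and 5. Without these fish, the level with prebiotic gave 160 higher and 138 lower calls, where all fish gave 465 and 184.

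The levels share no fish, so transcripts called in either could be read in the other. With prebiotic, 649 transcripts (3.81%) were called, and 3193 (18.7%) had an unadjusted p under 0.05. The part of the difference in top-100 share between prebiotic and combined fish in these calls was not tested. Of the 465 (2.73%) higher, 417 (89.7%) were also higher without prebiotic, where 58.7% of all transcripts with a positive estimate with prebiotic were. Their median log2 fold change was 0.68 with prebiotic and 0.25 in the fish without it. Of the 184 (1.08%) lower, 124 (67.4%) were also lower, against 52.4% of all with a negative estimate with prebiotic. Their median went from -0.62 to -0.11.

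Without prebiotic, 168 transcripts (0.985%) were called, and 2730 (16.0%) had an unadjusted p under 0.05. With only the control and soyasaponin fish in the fit, 15 were called. Of the 47 (0.276%) higher, 36 (76.6%) were also higher with prebiotic, against 49.9% of all with a positive estimate without prebiotic. Their median went from 0.55 to 0.16. Of the 121 (0.709%) lower, 68 (56.2%) were also lower. This was no more than the 61.1% of all transcripts with a negative estimate without prebiotic. The median of the 121 went from -1.01 to -0.04. With all fish and the deposited size factors, the signs of transcripts that rose thus recurred above the background in either direction of reading, while those of transcripts that fell without prebiotic did not. No test was made of these shares, since transcripts in the same fish are not independent. Over all called without prebiotic, the share with matching signs was 61.9%. It was 77.8% with the first principal component as a covariate, 78.3% without prebiotic replicates 4 and 5, which stand apart on that component, and 41.9% under total-count scaling. Over all called with prebiotic it was 83.4%, with 87.5%, 86.9% and 70.1% in the same order. Over all 17056 transcripts tested, signs matched for 9419 in the main fit and for 10126, 10393 and 9028 in the same order. Under total-count scaling, the share of those called without prebiotic thus lay below that of all tested. With prebiotic replicates 4 and 5 also left out, it was 61.0% (227 of 372). Signs of all 17056 then matched for 9702, so the share lay above that of all tested. Leaving out single fish gave 53.6% to 76.8% for those called without prebiotic, where at least 20 transcripts were called. It gave 76.6% to 89.9% for those called with prebiotic. The 53.6%, without prebiotic replicate 6, was 104 of 194 called, a share similar to the 9100 of all 17056 in that fit.

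Across all 17056 transcripts the log2 fold changes of the levels had a Pearson correlation of 0.18 and a Spearman correlation of 0.18. The Pearson value was 0.10, 0.22 and 0.31 in the bottom, middle and top abundance class. These describe transcripts that share 12 libraries per level and are not replicates.

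Counts within a level rested on single fish more than the main effect did. In the level without prebiotic, leaving out control replicate 3 brought the limma count to 0, where 2372 had an unadjusted p under 0.05. Leaving out control replicate 1 gave 76, control replicate 2 gave 43 and control replicate 4 gave 82. Omitting soyasaponin replicate 1 gave 106, replicate 2 gave 621, replicate 4 gave 46, replicate 5 gave 7 and replicate 6 gave 4. Fish outside the comparison counted through the shared variance, with 90 called without prebiotic replicate 1 and 80 without combined replicate 3. In the level with prebiotic, leaving out combined replicate 2 gave 266 and combined replicate 3 gave 348. Omitting prebiotic replicate 2 gave 420, replicate 4 gave 386 and replicate 5 gave 424.

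**Figure D4:**
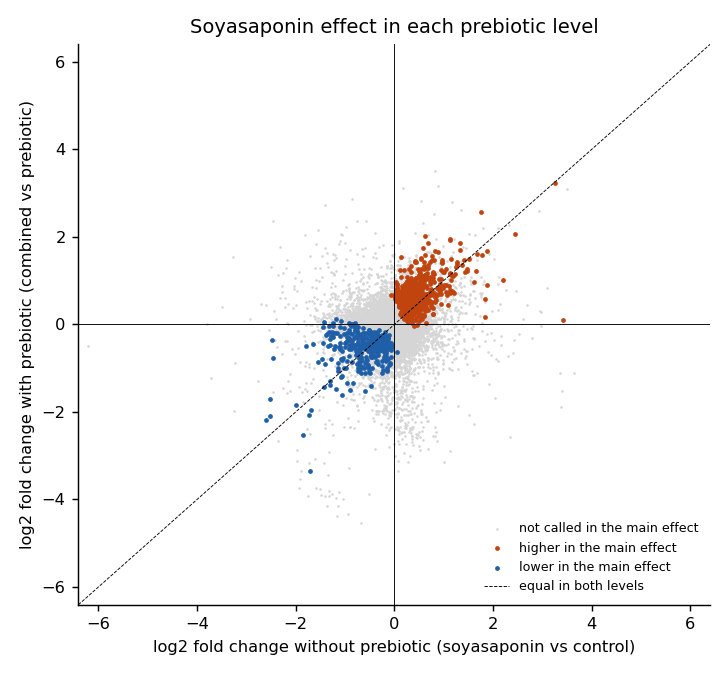
Each point is a transcript, with its log2 fold change for soyasaponin without prebiotic on the horizontal axis and with prebiotic on the vertical axis, each from 6 fish against 6. Of the 1017 called in the main effect, 1003 lie in the 2 quadrants of matching sign, and those that rose lie mostly above the line of equal change.

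Single fish followed the main effect to unequal extents. Of the 1017 transcripts, 524 (51.5%) had 12 of 12 fish given soyasaponin past the median of the 12 others, 919 (90.4%) had at least 11 and 1010 (99.3%) at least 10, against 5.6%, 17.6% and 31.9% of all transcripts tested. The calls used these same fish, so the shares describe the calls and are no separate evidence. Complete separation was rare: in 5 transcripts (0.0293%) every fish given soyasaponin lay above every other fish, and in 0 every one lay below. The 5 included LABE_00058622-RA, had means of 107 to 748 normalized counts and changed by 1.18- to 9.44-fold. Within a level, 216 transcripts (1.27%) did not overlap without prebiotic, 69 higher and 147 lower, and 505 (2.96%) with prebiotic, 372 higher and 133 lower. In 8 (0.0469%) the groups did not overlap in either level and moved the same way, 7 higher and 1 lower.

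A fish left out of the fit was read on transcripts that it had no part in calling, although the filter and the size factors used all fish. For each of the 24 fish, transcripts were called from the other 23, which gave 646 to 1538, and the fish was placed on either side of the midpoint between the means with and without soyasaponin. The left-out fish lay on the side of its own soyasaponin level at a median of 73.9% of the called transcripts, with a range of 28.2% to 92.9%, against a median of 56.1% (41.5% to 64.4%) over all transcripts tested. For 21 of 24 fish the share exceeded 50%. Over all transcripts tested it did so for all but control replicate 5 (47.2%) and soyasaponin replicate 2 (41.5%). The count of fish above 50% thus did not set the called transcripts apart from this background. Transcripts that rose gave a median of 76.5% and transcripts that fell 65.6%.

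The 3 exceptions all came from the level without prebiotic. Control replicate 5 lay on its own side at 35.6% of 1310 transcripts, soyasaponin replicate 2 at 28.2% of 1538 and soyasaponin replicate 3 at 46.6% of 1035. On a scale with 0 at the mean of fish without and 1 at the mean of fish with soyasaponin, control replicate 5 had a median position of 0.89 and soyasaponin replicate 2 of 0.12, whereas the other 11 fish without soyasaponin lay between -0.30 and 0.25. Control replicate 5 had 9.50 M reads and a size factor of 1.12, and soyasaponin replicate 2 had 9.38 M reads, both within the range of the other libraries. Control replicate 5 had the lowest abundance tilt and the lowest top-100 share of the 24 fish, 23.9%, and soyasaponin replicate 2 had the highest top-100 share of the 12 given soyasaponin, 28.9%. The part of these measures in the positions was not tested. Neither was at an extreme of the first principal component, with scores of -24.5 and -6.45 where the 24 fish ran from -55.0 to 113. Among control fish, replicate 5 had the highest value of both LABE_00038870-RA and LABE_00058622-RA, and soyasaponin replicate 2 had the lowest LABE_00038870-RA of the 12 given soyasaponin. In LABE_00024498-RA and LABE_00017910-RA, which fell, control replicate 5 (434 and 814) lay above all 12 fish given soyasaponin. In the same 2 transcripts, soyasaponin replicate 2 (241 and 514) lay below all 12 fish without it. Under cyclic loess normalization the 2 fish lay on their own side at 34.96% and 28.8%.

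All 12 fish of the level with prebiotic lay on their own side at more than 50% of the called transcripts, the prebiotic fish at 63.1% to 78.3% and the combined fish at 65.3% to 92.9%. Over all transcripts tested the shares also exceeded 50%, at 51.3% to 59.1% in prebiotic and 52.0% to 62.1% in combined fish. Combined replicate 2 had the highest share of called transcripts. Its median position was 1.64, beyond the mean of the fish given soyasaponin. Prebiotic replicates 4 and 5 lay on their own side for transcripts that rose (82.9% and 71.3%) and below 50% for transcripts that fell (38.8% and 47.9%). Combined replicate 1 likewise had 73.2% for transcripts that rose and 49.5% for those that fell.

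**Figure D5:**
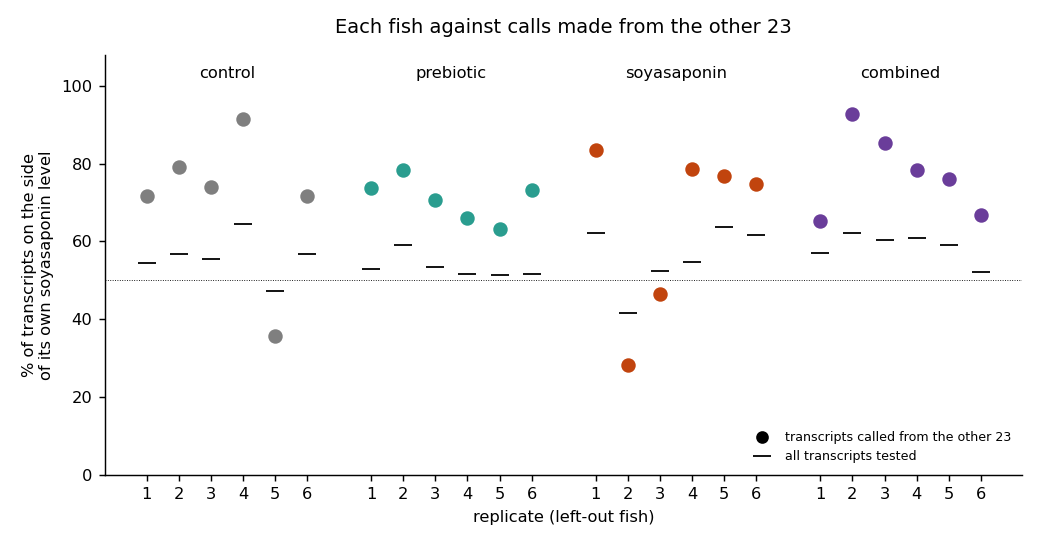
For each of 24 fish, the share of transcripts called from the other 23 at which the left-out fish lay on the side of its own soyasaponin level (points), and the same over all transcripts tested (dashes), with 50% dotted. Control replicate 5 and soyasaponin replicates 2 and 3 lie below 50%, and the other 21 fish lie above it.

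The called transcripts held a modest part of the library. The 693 that rose held 5.28% to 8.38% of normalized counts in control fish (median 6.10%), 4.99% to 5.83% in prebiotic (median 5.37%), 6.47% to 8.66% in soyasaponin (median 7.79%) and 7.52% to 9.75% in combined fish (median 7.96%). The ranges of prebiotic and combined fish were apart, while those of control and soyasaponin fish overlapped. The 324 that fell held medians of 2.34%, 2.34%, 1.57% and 1.59% in the same order, and the lowest fish without soyasaponin, at 1.79%, lay below the highest given it, at 1.91%. These sums rest on transcripts chosen for the difference and carry no test.

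No transcript was detected in nearly all fish of either group and nearly none of the other. Over all 20751 transcripts deposited, 0 had a read in at least 10 of 12 fish of either group and in at most 2 of the 12 others. Reads were present in all 24 fish for 691 of the 693 that rose and 323 of the 324 that fell, against 16415 of the 17056 tested (96.2%). Where a library holds 0 reads of a transcript, counting error alone leaves room for 3.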

How the data were processed

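TruSeq Stranded mRNA libraries of 24 hindguts were sequenced as paired ends, per the labels' protocols. The table the authors deposited is a signal: reads per transcript scaled to the library's size factor. The submitters' processing notes name cutadapt, TopHat2, featureCounts, Subread and DESeq2. Their versions, the genome build and its annotation: not given in the sources used here. In each library, the smallest nonzero value taken as 1 read made 498024 of 498024 values whole reads within 1e-06. Transcripts with a mean of at least 10 over 24 fish (17056, leaving out 3695) were analysed as log2(normalized count + 1), which understates fold changes of low transcripts. limma 3.58.1 with intensity trend (R 4.3.3) was fitted to 4 diet means, two-sided, with Benjamini-Hochberg adjustment over all 17056. Alternatives included edgeR 4.0.16 and DESeq2 1.42.0 on recovered reads. Permutation tests used scipy 1.17.1, and plots matplotlib 3.10.9. The fit was tested on simulated data. Replicate numbers follow record order and pair no fish. Nothing says whether fish of a diet were handled separately, so p-values measure the spread between these samples. Groups, comparisons and alternatives were chosen with earlier results of these data known. Named transcripts are the 2 highest and 2 lowest moderated t of the main effect among those with adjusted p under 0.05.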

Additional observations from a re-analysis of the deposited data

Results flagged for a closer look

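In 44 sets of 6 fish of the same diet, 6 had a highest or lowest fish farther from the rest than Dixon's 95% limit, where about 1 in 20, or 2.2, is expected by chance. Left out of the fit, control replicate 5 lay on its own side at 35.6% of called transcripts, and the nearest control fish lay at 71.6%. The same fish had the highest control value of LABE_00038870-RA, 1040 normalized counts against 746 in the next, and the lowest abundance tilt, -0.31 against -0.23. Soyasaponin replicate 1 had 614 normalized counts of LABE_00058622-RA, where the next soyasaponin fish had 242. Soyasaponin replicate 4 had a first component score of 71.5, and the next in its diet had -6.45. Prebiotic replicate 2 had 20386 transcripts detected, against 20231 in the next.

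The filter at a mean of 10 normalized counts left out 3695 transcripts. When limma was run with no filter, 37 of them had an adjusted p under 0.05 for the soyasaponin main effect, 20 higher and 17 lower. The same fit called 916 of all 20751 transcripts, a larger share.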

How the results depend on the processing

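The soyasaponin main effect kept its count within 1.5 times of 1017 under pseudocounts of 0.5 and 5, both other filters, quantile, cyclic loess and total-count scaling, thinning to equal reads, edgeR, the additive model, both covariates, the title-number block and omission of prebiotic replicates 4 and 5. It was 1726 with array quality weights, 1786 at an adjusted p under 0.1, 1602 in DESeq2 and 2 with the 8 averages, where the smaller number of values leaves 4 residual degrees of freedom, and 646 to 1538 without single fish. The share higher was 68.1%, and 81.4% under total-count scaling, 78.4% under quantile normalization, 56.6% after adding the first principal component and 56.5% without prebiotic replicates 4 and 5. The effect without prebiotic (168) was 79 under quantile normalization, 103 under cyclic loess, 253 under total-count scaling (372 also without prebiotic replicates 4 and 5), 276 without those 2 fish, 320 with the first principal component, 388 with the title-number block, 576 at an adjusted p under 0.1, 633 in DESeq2, 1054 with array quality weights, 15 from its 2 diets alone and 0 in limma from the 8 averages (2122 at an unadjusted p under 0.05; other tools not run on these), and 0 to 621 without single fish. The effect with prebiotic (649) was 298 without prebiotic replicates 4 and 5, 338 with the size factor, 1209 at an adjusted p under 0.1, 1247 in DESeq2, 1402 under total-count scaling and 0 in limma from the 8 averages (2915 at an unadjusted p under 0.05), and 266 to 781 without single fish. Interactions numbered 0, but 117 in DESeq2, 72 under total-count scaling and 0 to 1 without single fish. Under total-count scaling with prebiotic replicates 4 and 5 also left out, interactions numbered 0 and the effect with prebiotic 547. The cause of these changes was not tested. In the bottom abundance class 239 were called with the first principal component, 99 with the size factor and 307 in DESeq2, and 82 to 278 without single fish; without control replicate 4 it was 95, without soyasaponin replicates 2 and 5 it was 278 and 94, and without combined replicate 2 it was 82. Matching signs of transcripts called without prebiotic were 53.2% under quantile normalization, 69.4% with array quality weights, 41.9% under total-count scaling, 77.8% with the first principal component and 78.3% without prebiotic replicates 4 and 5. For those called with prebiotic they were 86.4%, 70.1%, 87.5% and 86.9% under the last 4 of these, 91.7% with the size factor, 78.7% at an adjusted p under 0.1 and 77.3% in DESeq2. Over all 17056 transcripts tested, signs matched for 9466 under quantile normalization, so the 42 of 79 called without prebiotic lay below that background. Signs of all tested matched for 9882 with array quality weights, 9443 with the size factor and 9208 in DESeq2. Under total-count scaling without prebiotic replicates 4 and 5, matching signs were 61.0% and 83.4% for those called without and with prebiotic. No paired analysis was possible because the labels give no replicate numbers shared between diets. The title-number block had a consensus correlation of -0.04. A correlation below 0 does not widen the standard errors of diet means, so this fit could not show calls lost to grouping. It called 1338 transcripts in the main effect, with all 1017 among them.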
